A study of Danio rerio with 4 samples.

Results

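The HMGB genes of the zebrafish encode the HMG box chromatin proteins Hmgb1, Hmgb2 and Hmgb3, each present as an a and a b copy. The 6 genes hmgb1a, hmgb1b, hmgb2a, hmgb2b, hmgb3a and hmgb3b were taken by symbol from a table of 11021 genes, and all 6 were present. Their messenger RNA was read in livers of larvae at 5 days post fertilisation that carry Tg(fabp10:has.UHRF1-GFP), a transgene for human UHRF1 fused to GFP, in the line labelled high. The fabp10 promoter drives expression in hepatocytes, so the other cells of the organ are not direct targets of the transgene. The study also labels control libraries, 2 of them, from age-matched larvae with Tg(fabp10:nls-mCherry), and these were not analysed here. The values below are those of A and B, the 2 libraries of the UHRF1-high line. No value below is therefore a change caused by UHRF1, and no p-value can be given. A difference between A and B is spread within 1 group. Nothing in the labels tells if separate clutches were used for them, and the batches named in the series text are not tied to either.

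HMGB proteins are abundant non-histone proteins that carry tandem HMG boxes followed by an acidic tail. The boxes bind the minor groove of DNA with little sequence preference and bend it, which loosens nucleosomes and helps other factors to bind. HMGB1 is found in nearly all mammalian cells and is released from damaged or activated cells as an alarm signal to the immune system. HMGB2 and HMGB3 are prominent in the mammalian embryo and in proliferating or progenitor cells, and their level falls in most adult tissues. In mouse, HMGB3 is known for its role in blood stem and progenitor cells.

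The values are quantile-normalised, so each one reports the gene's place within its library. The table median was 4.36 in A and 4.41 in B, and the summed values of 860102 and 860084 are nearly equal through the normalisation and say nothing of sequencing depth, which is unknown. Most of the 18 listed hepatocyte markers ranked high, with a median percentile of 98.7 in A against 98.6 in B and none listed at 0. Exceptions included hpx, at percentile 64.2 of A and 22.4 of B, and ahsg2 (listed as si:ch73-252g14.4), at 89.1 and 39.2. Of the 18 markers 4 were higher in B, 0 were at least 2-fold higher in B and 7 were at least 2-fold higher in A. The 18 summed to 260674 and 245104. Most of each sum came from apoa1b (130650), apoa2 (73737) and fabp10a (29654.5), which had the same value in both libraries. The sums therefore hide gaps in other markers, such as tfa (12758 in A and 2207 in B) and serpina1 (4796 and 1567). RNA of other organs was also present in unequal amounts. Of the skeletal muscle markers, 23 passed a filter (a mean value of at least 1) and 22 of these were higher in B, and their summed value over all 26 measured was 550 in A and 4788 in B. The exocrine pancreas markers went the other way, 14 of 15 being higher in A, with summed values of 11667 and 1356 over 16 genes. Of all 8386 genes above the filter 51.0% were higher in B. On log2(value + 1) 6.83% were at least 2-fold higher in B and 7.07% in A. In such tissue samples fewer cells of a type and less RNA per cell cannot be told apart.

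The hmgb2 pair gave the highest mean values of the family. The gene hmgb2a lies on chromosome 1 from 38578882 to 38581017 (Zv9). Its value was 41.0 in A but 176 in B, with a mean of 109 ± 95.5 (SD, n = 2). It ranked 1434th of all genes in A and 496th in B. The gene hmgb2b, on chromosome 23 from 45378496 to 45382172, had 53.6 in A but 125 in B, with a mean of 89.4 ± 50.7 (SD, n = 2). Both were higher in B, and the distance between the libraries was wider for hmgb2a. Together the pair had a summed value of 94.6 in A and 301 in B.

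The hmgb1 pair, orthologous to the mammalian alarm signal gene, lay lower. The gene hmgb1a, on chromosome 10 from 37242182 to 37246990, stood at 15.3 in A but 39.3 in B, with a mean of 27.3 ± 17.0 (SD, n = 2). The gene hmgb1b, on chromosome 15 from 30810629 to 30814100, had 10.1 in A but 20.8 in B, with a mean of 15.4 ± 7.55 (SD, n = 2). Both copies were higher in B, by a ratio of the values of 2.57 for hmgb1a and 2.06 for hmgb1b.

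The hmgb3 pair differed most within itself. The gene hmgb3b, on chromosome 21 from 33085633 to 33095620, stood at 67.3 in A, close to its 76.9 in B, with a mean of 72.1 ± 6.82 (SD, n = 2). Its SD was 9.46% of its mean, against 49.0% to 88.0% for the other members. The gene hmgb3a, on chromosome 7 from 27039063 to 27044117, had 5.20 in A but 11.2 in B, with a mean of 8.18 ± 4.21 (SD, n = 2), and was the lowest member in both libraries. Even so it stood above the table median, at percentile 53.3 of A and 68.7 of B.

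**Figure D1:**
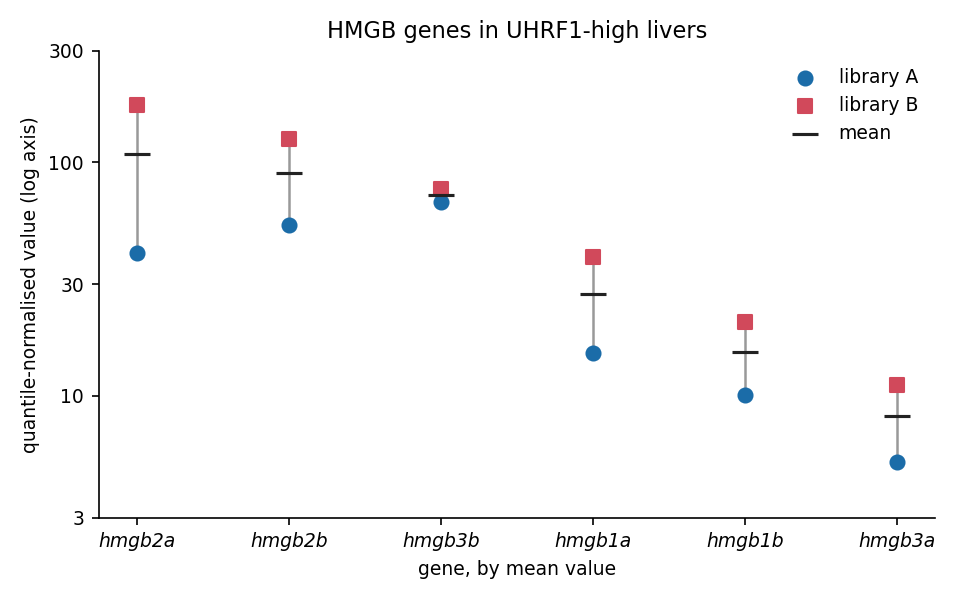
Quantile-normalised value of each HMGB gene (log axis) in library A (circle) and library B (square), with a bar at the mean. The libraries lie furthest apart for hmgb2a, at 41.0 and 176, and closest for hmgb3b, at 67.3 and 76.9.

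By mean value the order was hmgb2a, hmgb2b, hmgb3b, hmgb1a, hmgb1b and hmgb3a. The ranges of A and B overlapped between hmgb2a and hmgb2b, between hmgb2b and hmgb3b, between hmgb1a and hmgb1b and between hmgb1b and hmgb3a, so the levels of these neighbours did not differ beyond their spread over the libraries. Within each library hmgb1a was nonetheless above hmgb1b, and hmgb1b was 1.94 times hmgb3a in A and 1.86 times in B. The one step without overlap was that from hmgb3b, with a lowest value of 67.3, to hmgb1a, with a highest value of 39.3. The order of the upper 3 genes was not the same in the libraries: hmgb3b led in A and hmgb2a in B, each being the lowest of the 3 in the other library. The lower 3 kept their places. No source used here tells if the authors scaled by transcript length, and transcript lengths were not used here, so an order of levels between genes can include their length. The genomic spans, introns included, run from 2136 bases for hmgb2a to 9988 bases for hmgb3b.

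Each of the 6 members had a higher value in B than in A, where 51.0% of the 8386 genes above the filter did. By the ratio of the values, 5 of 6 were at least 2-fold higher in B, against 10.7% of genes above the filter, and hmgb2a was at least 4-fold higher, against 2.56%. The ratios of B over A were 4.30 for hmgb2a, 2.57 for hmgb1a, 2.34 for hmgb2b, 2.15 for hmgb3a, 2.06 for hmgb1b and 1.14 for hmgb3b. On log2(value + 1), which understates the difference of low genes, 3 of 6 members reached 2-fold, against 6.83% of genes; hmgb1b and hmgb3a fell just short, both with a difference of 0.97. On log2(value + 0.1) it was 5 of 6, against 10.2%, and on log2(value + 10) it was 2 of 6, against 1.60%. At least 2-fold higher in A on log2(value + 1) were 0 of 6, against 7.07%. The members' median difference was 1.09 on this scale, beside 0.02 for all genes above the filter. These libraries are a single pair, so the members' shared direction is 1 observation and not 6.

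The position of each gene among all differences shows the same split. The difference of hmgb2a, 2.08 on log2(value + 1), was exceeded by 70 of the 8386 genes and lay at percentile 99.2. The difference of hmgb1a was 1.31, at percentile 96.6, and that of hmgb2b was 1.21, at percentile 95.8. With 0.97 each, hmgb1b and hmgb3a both lay at percentile 92.7. The difference of hmgb3b, 0.19, lay at percentile 61.9, near the middle of the table. The skeletal muscle markers, which moved in the same direction, had a median difference of 3.21, and 19 of them differed by at least as much as hmgb2a. The part of these markers in the HMGB differences was not tested.

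**Figure D2:**
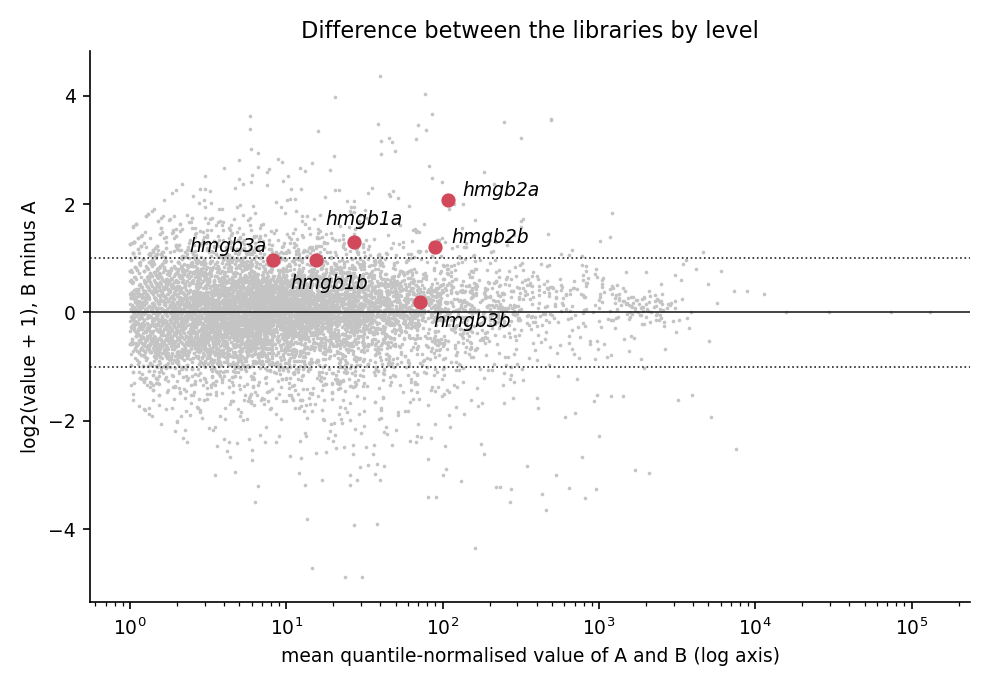
Difference of log2(value + 1), B minus A, against the mean value (log axis) for 8386 genes whose mean reached 1 (grey) and the 6 HMGB genes (red). Dotted lines mark 2-fold in each direction; hmgb2a lies at 2.08 and hmgb3b at 0.19.

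The composition of the family differed between the libraries. Transcript lengths were not used, so sums and shares across genes can include their length. Whether reads of 1 copy could be assigned to the other was not tested. The summed HMGB value was 192 in A and 449 in B, a ratio of 2.34. The gene hmgb2a alone accounted for 52.6% of that gap, and without it the sums were 151 and 273, a ratio of 1.81. As a share of the summed value, hmgb2a made up 21.3% in A and 39.2% in B. The share of hmgb3b was 35.0% in A and 17.1% in B, although its value was slightly higher in B, because the other members differed by more. The share of hmgb2b was 27.9% in each library, its own ratio, 2.34, being that of the sum. The remaining shares moved by less than 1 percentage point: hmgb1a had 7.93% and 8.74%, hmgb1b 5.24% and 4.62%, and hmgb3a 2.70% and 2.48%.

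**Figure D3:**
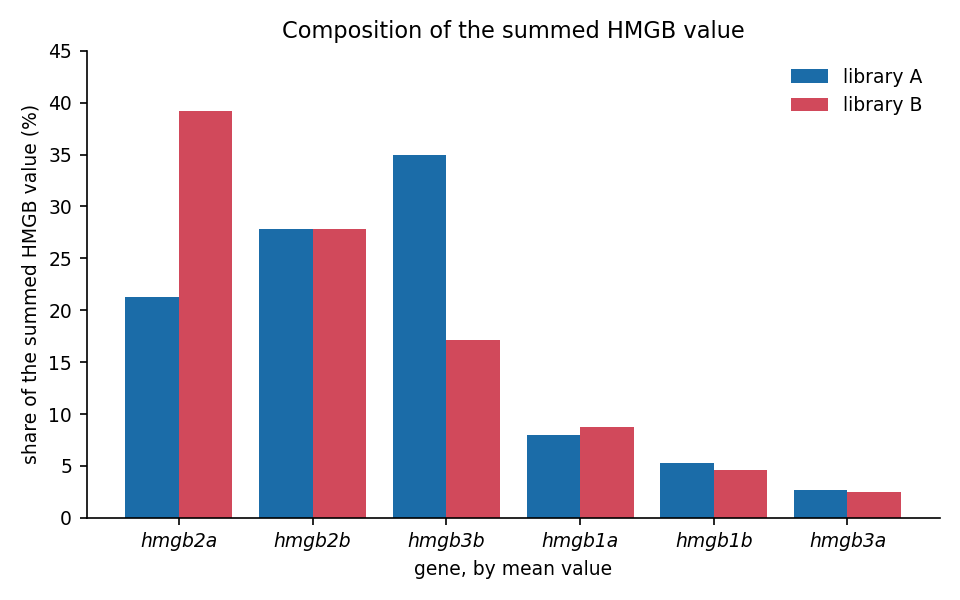
Share of each HMGB gene in the summed HMGB value, in percent, in library A (blue) and library B (red). The share of hmgb2a was 21.3% in A and 39.2% in B, that of hmgb3b was 35.0% and 17.1%, and that of hmgb2b was 27.9% in both.

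A constant factor of gene length would cancel in a ratio between copies that is compared across libraries. Quantile normalisation sets values by rank, so here that factor need not cancel exactly. Within the hmgb2 pair the a copy had 0.764 times the value of the b copy in A and 1.41 times in B, so that the order of the copies reversed and their ratio differed 1.84-fold. Within the hmgb1 pair the a copy was the higher in both, by 1.51 in A and 1.89 in B, a 1.25-fold difference in the ratio. Within the hmgb3 pair the b copy was the higher by 12.9 in A and 6.89 in B, a 1.88-fold difference. Among all 15 pairs of members the order changed in 3, namely hmgb2a against hmgb2b, hmgb2a against hmgb3b and hmgb2b against hmgb3b. The 6 pairs formed by hmgb1a, hmgb1b, hmgb2b and hmgb3a kept their ratio within 1.25-fold between A and B. The pairs that include hmgb2a differed by 1.67-fold to 3.76-fold. With 2 libraries no test of these differences is possible, and whether the authors' counting could assign reads of 1 copy to the other was not tested.

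The genes most like each member were found by the distance between log2(value + 1) in both libraries, a likeness that rests on 2 values. The gene closest to hmgb2a was hmgn2, which encodes a nucleosome-binding HMGN protein, with 45.5 in A and 175 in B. It was followed by gapdhs (46.2 and 190) and the epithelial adhesion gene epcam (30.7 and 167). Closest to hmgb2b were the tropomyosin gene tpm3 (52.4 and 119), gsto2 (51.4 and 132) and icn (49.3 and 123). Closest to hmgb1a were tmem176, dpp7 and zgc:136864, and closest to hmgb1b were the tubulin gene tuba8l3, nr2f1a and tgm2b. The origin recognition gene orc4 was nearest to hmgb3a, with 5.06 in A and 11.0 in B, ahead of plac8.1 and zgc:110591. Those nearest to hmgb3b were hn1l, wu:fd55e03 and emc2, the last a subunit of a membrane protein insertion complex.

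The genes beside the members on the chromosomes were compared as well, a choice made after the values were seen. The 12 genes of the table that flank the 6 members lay 1776 to 506452 bases away. No flanking gene of hmgb1b or of hmgb3b reached a mean of 1. Of the 8 with a mean of at least 1, 3 were higher in B, against 51.0% of all genes above the filter. On log2(value + 1) 1 of the 8 was at least 2-fold higher, against 6.83%. The median difference of the 8 was -0.38 on that scale, B minus A. Next to hmgb2a, galnt7 had 13.8 in A and 8.32 in B, and hand2, a transcription factor gene, had 12.0 and 22.1. The gene past 2-fold was zgc:101853, before hmgb2b, with 0.487 in A and 5.02 in B. After hmgb2b came the transferrin receptor gene tfr2, higher in A with 34.7 against 9.63. In the table hmgb2b lies inside the span of ctc1, given as 363473 bases, and hmgb3a inside that of zgc:77041, given as 46357647 bases. These very long spans were taken as given and not checked, so the enclosure is uncertain. These enclosing genes had values of 5.39 and 4.16 for ctc1 and of 16.0 and 15.5 for zgc:77041 in A and B, both slightly higher in A.

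The HMGA and HMGN list had 7 of its 9 genes in the table, of which 6 passed the filter, with a median difference of 0.44. Of these 6 genes 5 were higher in B, against 51.0% of all genes above the filter. On log2(value + 1) 2 were at least 2-fold higher, against 6.83%. The gene hmga1a, whose product binds AT-rich DNA through AT hooks, had 102 in A and 215 in B. Beside hmgn2, the nucleosome-binding genes hmgn7 (listed as zgc:158409) had 77.3 and 103, hmgn3 had 21.3 and 29.8, and hmgn6 (listed as fb06f03) went the other way with 44.2 and 35.8. Low values were found for hmga2, at 3.95 and 4.86, and for hmga1b, which at 0.0203 and 0.365 did not pass the filter. Hence on log2(value + 1) hmgb2a and hmgn2 were the 2 largest differences among the genes named hmgb, hmga or hmgn. By the plain ratio of the values hmga1b, below the filter, was the largest at 18.0. That ratio rests on its value of 0.0203 in A, which is the lowest value of that library. The other proteins with an HMG box include Sox factors and chromatin subunits. They gave a median difference of 0.08 over 20 genes (-0.07 when a mean of 10 was required). Of the 20 genes 10 were higher in B, against 51.0%, and 3 were at least 2-fold higher, against 6.83%. Their highest members were the remodelling subunit gene smarce1 (46.8 and 46.5), the mitochondrial DNA packaging gene tfam (19.9 and 33.6) and sox9b, a biliary and cartilage transcription factor gene (8.59 and 24.0).

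Nuclear partners of HMGB proteins were next. In mammals HMGB2 belongs to the SET complex, which acts in DNA repair and cell death. Of 8 measured genes of that list 7 were higher in B, against 51.0% of all genes above the filter. On log2(value + 1) 4 were at least 2-fold higher, against 6.83%, and the list median was 0.88. The histone chaperone genes seta (44.4 and 99.3) and setb (24.6 and 53.3) and anp32b (24.9 and 52.8) had ratios close to those of hmgb2b. In contrast anp32a (50.2 and 52.2), anp32e (22.4 and 22.6) and the repair endonuclease gene apex1 (16.7 and 16.3) had nearly equal values, like hmgb3b. The nucleoside diphosphate kinase genes nme2b.1 (716 and 1172) and nme2b.2 (10.5 and 89.3) are copies by name. Whether the counting could assign reads of 1 copy to the other was not tested, so their separate values are uncertain. The difference of nme2b.2, 2.98, was the only 1 in this list larger than that of hmgb2a. The list of linker histone and histone variant genes had a median of 0.43 over 13 genes. Of its 13 genes 9 were higher in B, against 51.0%, and 5 were at least 2-fold higher, against 6.83%. Its highest members were h3f3d (151 and 362) and h2afvb (126 and 313), which encode replacement histones, and h2afx1 (listed as zgc:101846, 114 and 153).

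Genes of cell division are set beside the members because their higher values in B were known when the members were chosen, so this direction is no independent support. The DNA replication list had a median difference of 0.80 over 40 genes, 37 of them higher in B and 9 at least 2-fold; a pseudocount of 10 gave 0.28. The mitosis list had a median of 0.95 over 39 genes, with 35 higher in B and 19 at least 2-fold. Its median was 0.45 when a mean of 10 was required and 0.25 with a pseudocount of 10. Among all genes above the filter 51.0% were higher in B, and 6.83% were at least 2-fold higher on log2(value + 1). On log2(value + 1), the difference of hmgb2a, 2.08, was larger than that of each of the 40 replication and 39 mitosis genes. The difference of hmgb1a was exceeded by 1 replication gene and 9 mitosis genes, and that of hmgb2b by 4 and 11. By contrast that of hmgb3b was exceeded by 35 of the 40 and by 32 of the 39. These counts depend on that scale, which understates the difference of low genes. By the plain ratio of the values, mitosis genes such as ccnb1 (8.31), smc4 (6.52) and kif11 (5.29) exceeded hmgb2a (4.30). Replication genes such as pold1 (2.96) and orc3 (2.76) exceeded hmgb1a (2.57). The replication clamp gene pcna had 73.9 in A and 175 in B, close to hmgb2b in ratio, the helicase gene mcm7 24.9 and 48.7, and the nucleotide pool enzyme gene dut 9.63 and 25.1. The highest mitosis genes were bub3 (9.88 and 13.9), of the spindle checkpoint, the nuclear lamina gene lmnb1 (10.8 and 11.5) and stmn1a (7.49 and 13.6), a microtubule regulator. Muscle markers (median 3.21) and macrophage and neutrophil markers (median 1.23, or 0.55 to 2.01 under other settings) were also higher in B, and their part in these differences was not tested.

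**Figure D4:**
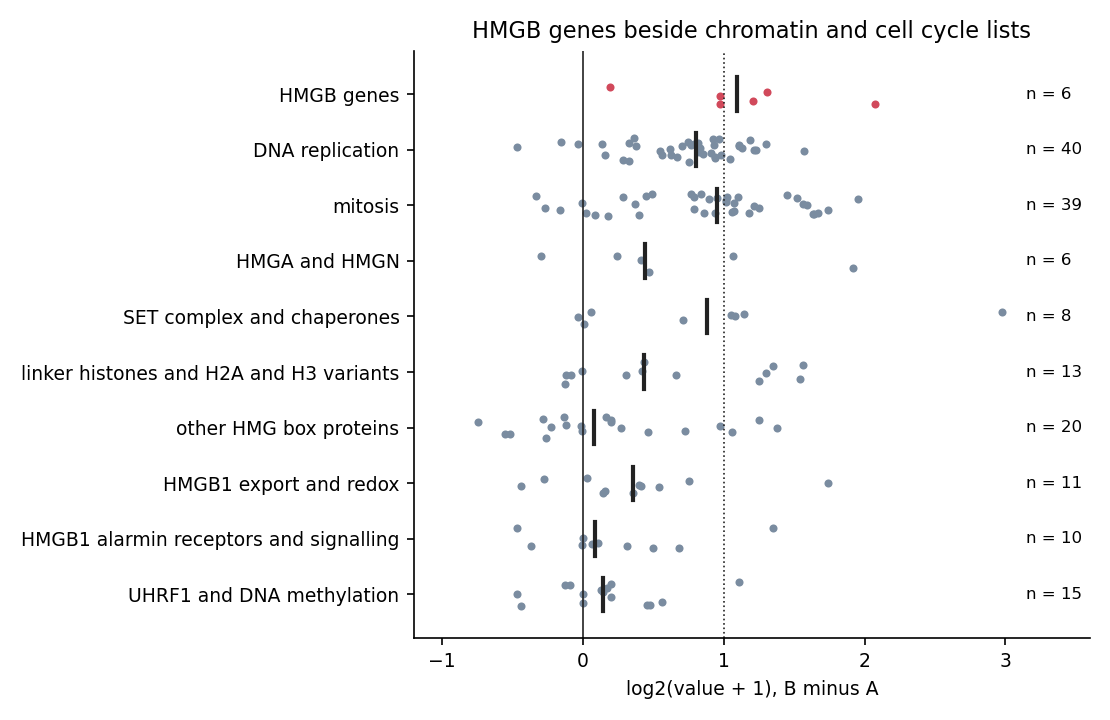
Difference of log2(value + 1), B minus A, for each gene with a mean of at least 1 (points) in the HMGB family (red) and 9 gene lists, with the median as a bar and the number of genes at the right. The HMGB median is 1.09, those of DNA replication and mitosis are 0.80 and 0.95, and that of the other HMG box proteins is 0.08. The cell type marker lists are not drawn. Among them skeletal muscle (3.21), neuron and retina (1.49) and macrophage and neutrophil (1.23) had medians above that of HMGB, and the others lay below. With a pseudocount of 0.1 the DNA replication and mitosis medians were 1.03 and 1.38.

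The extracellular pathway of HMGB1 was measured in part. Of 30 listed alarm receptor and signalling genes 16 were in the table and 10 passed the filter. Of these 10 genes 7 were higher in B, against 51.0% of all genes above the filter. On log2(value + 1) 1 was at least 2-fold higher, against 6.83%. The median difference was 0.08 (0.41 when a mean of 10 was required, 0.03 without the filter and 0.036 with a pseudocount of 10). The inhibitor of NF-kappaB gene nfkbiab had the highest value, 67.5 in A and 84.2 in B. The others with a mean of at least 10 were nfkbiaa (5.61 and 15.8), nfkb2 (10.1 and 10.1) and ikbkg (8.18 and 12.0), the regulatory subunit gene of the kinase that acts on such inhibitors. The toll-like receptor adaptor gene myd88 had 6.71 and 7.06. The chemokine receptor gene cxcr4a was at the lowest value of each library, 0.0203 in A and 0 in B, and the kinase gene ikbkb, at 0.183 in A, was likewise at 0 in B. Proteins of nuclear transport and redox control govern, in mammals, where HMGB1 goes and in which form. Their 11 genes had a median of 0.35 (0.16 with a pseudocount of 10). Of these 11 genes 9 were higher in B, against 51.0%, and 1 was at least 2-fold higher, against 6.83%. The peroxiredoxin gene prdx2 (1108 and 1867), the glutaredoxin gene glrx (561 and 619) and the thioredoxin gene txn (242 and 320) were the highest. The gene past 2-fold, named after its values were seen, was the importin gene kpna2, with 14.5 in A and 50.8 in B.

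The UHRF1 and DNA methylation list had a median difference of 0.14 over 15 genes (close to 0 without the filter). Of these 15 genes 9 were higher in B, against 51.0% of all genes above the filter. At least 2-fold higher in B on log2(value + 1) was 1 of 15, against 6.83%. The highest members were hdac1 (60.0 and 68.9), mbd3a (17.1 and 18.7) and hdac3 (12.4 and 11.5). These are genes of histone deacetylases and a methyl-CpG binding domain protein. Within the list uhrf1 had 1.74 in A and 0.976 in B, and dnmt1 had 2.14 and 3.30. The uhrf1 value is that of the zebrafish gene, whereas the transgene carries human UHRF1, so it is not a measure of the transgene. Whether reads of the transgene could be assigned to uhrf1 was not tested.

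Markers of other cell types, among them cells of other organs, follow. For comparison, 51.0% of all genes above the filter were higher in B. The blood progenitor and lymphoid markers had 9 genes in the table with summed values of 5.20 in A and 15.9 in B; 4 passed the filter, all 4 of them higher in B, and the highest were ccr9a (1.06 and 6.71), lmo2 (1.55 and 3.30) and blnk (0.487 and 1.93). The macrophage and neutrophil markers summed to 57.4 and 188 over 19 genes, with 11 of 13 higher in B, and were led by fcer1gl (10.2 and 41.9), coro1a (6.83 and 36.4) and lcp1 (9.30 and 23.1). Neuron and retina markers summed to 26.3 and 67.0 over 12 genes, with 4 of 5 higher in B. Their median difference was 1.49 (0.53 with a pseudocount of 10 and -0.053 without the filter). They were led by fabp7a (12.0 and 38.0), tuba1c (listed as tuba1l, 5.72 and 15.4) and tuba1a (listed as tuba1l2, 1.69 and 6.94). Lower in B were gnat2 (2.16 and 1.93) and, below the filter, genes such as snap25b (1.55 and 0.0609) and snap25a (0.772 and 0.304). Also below the filter, stmn1b was higher in B (0.609 and 0.864). Skin markers summed to 668 and 1292 over 24 genes, with 15 of 19 higher in B and a median difference of 1.01. The genes epcam, near hmgb2a by value, and icn, near hmgb2b, are on this skin list. Erythrocyte markers summed to 1506 and 2378 over 12 genes, with 5 of 10 higher in B and a median difference of -0.14. Most of these sums came from globin genes such as hbae3 (663 and 1035) and hbbe1.1 (614 and 1048). Markers such as cahz (22.1 and 7.22) and alas2 (8.67 and 4.77) were lower in B. Intestinal markers summed to 4227 and 2358 over 11 genes, with 2 of 6 higher in B and a median difference of -0.41. Most of these sums came from apoa4 (2588 and 1273) and rbp2b (1444 and 821). By contrast fabp2 (115 and 151) and rbp2a (42.5 and 87.8) were higher in B. The part of these cells in the HMGB values was not tested.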

How the data were processed

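Polyadenylated RNA from zebrafish livers at 5 days post fertilisation was selected on beads, fragmented and sequenced with bar-coded adapters, per the labels' protocols; the series text instead speaks of small RNA. The deposited signal values had been quantile-normalised, which is known from the table's name. The submitters' processing notes name the build Zv9 (danRer7) and the tool CASAVA 1.7. Counting, strand, annotation, gene filter and the original unit: not given in the sources used here. Starts in the table were counted from 0 (3 are 0) and are given here counted from 1.

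Both value columns were matched by name to sample titles, and 0 other value columns were left unused. The HMGB genes and the 19 gene lists were chosen with earlier results of these data known. List symbols were matched to the table directly or through unique older symbols in RefSeq (GRCz12tu), and 117 of 482 matched no gene of the table. Symbols were also left out if they matched more than 1 gene, a gene already in that list or an HMGB member. Of these lists, 1 counts in the totals without its own result being reported here. Differences are log2(value + 1), B minus A, over 8386 genes with a mean of at least 1, computed with Python 3.11.15, numpy 2.4.6 and pandas 2.3.3 and checked on simulated data. The planned limma fit against the control could not be made and no other test was run. The named genes were the 6 members and those of the HMGA and HMGN, SET complex and alarm lists with a mean of at least 10. To these were added the 3 highest of each other list and the 3 genes nearest to each member. For pancreas, muscle, skin, erythrocyte and intestine markers sums and counts are given instead of the 3 highest. The erythrocyte and intestine genes named were picked after their values were seen. Further genes, such as hpx, tfa, ccnb1, pold1, snap25b, hmga2, hmga1b, myd88, cxcr4a and ikbkb, were named after their values were seen. Depth is unknown, so no counting interval is given. No sequence is shown.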

Additional observations from a re-analysis of the deposited data

How the results depend on the processing

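No alternative run could turn the direction of a member: a pseudocount or the plain ratio keeps the sign by construction, and median scaling hardly changes the values. The number of members at least 2-fold higher in B was 3 when 1 was added before the logarithm, 5 when 0.1 was added, 5 by the plain ratio of values (an alternative chosen after seeing the data), 3 after median scaling and 2 with a pseudocount of 10. The pseudocount of 10 moved 2 differences by over 1.5 times, those of hmgb1b to 0.61 and hmgb3a to 0.48. Over all genes, 573 were at least 2-fold higher in B and 593 in A; with a pseudocount of 10 these were 134 and 188, and among genes whose mean reached 10, a smaller set, 238 and 320. Of 94 alternative list medians 3 reversed: the UHRF1 and DNA methylation list without a filter (-5.8e-05), the neuron and retina list without a filter (-0.053) and the erythrocyte list when a mean of 10 was required (0.59). The cause was not tested. A further 25 moved, by over 1.5 times or, for the other HMG box proteins without a filter and at a mean of 10, across 0 (to -0.07 in the second), 12 of them with a pseudocount of 10, where those of DNA replication and mitosis were 0.28 and 0.25. Leaving out a library gives the other's value as stated for each member. No paired analysis was possible because 1 group was analysed. Division by coding length was not run, since no coding lengths were used here, nor were the alternatives for the comparison with the control.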
